A study of Mus musculus with 12 samples.

Results

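The genes described here are the 175 solute carrier entries expressed in cultured mouse kidney epithelial cells. They were taken from 330 entries whose symbol is made of Slc, a family number, the letter a and a member number, among 31026 entries in the authors' deposited tables. Members were chosen by their level in control cells: an entry qualified when it was at least 1 FPKM in suspended or in attached control cells. FPKM is a count of sequenced fragments divided by the length of the transcript and the size of the library. Of the remaining entries, 150 lay below that level in both control groups, and 5 that reached it were left out by name and are not analysed here. The 175 members carry 174 symbols, because Slc25a37 stands on 2 entries, and they belong to 42 families. They were sorted by the known substrates of their family into 13 classes.

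Solute carriers are membrane proteins that move small molecules and ions without splitting ATP themselves. Facilitators let a solute run down its gradient, cotransporters couple it to sodium or protons, and exchangers swap one solute for another. In the kidney they recover sugars, amino acids, phosphate, bicarbonate and vitamins from the tubular fluid, and inside every cell they load lysosomes, the Golgi apparatus and mitochondria.

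RNA from 12 samples was compared in 4 groups of 3, set up to study the part of the stress kinase JNK in anoikis, a form of cell death that follows loss of attachment. The JNK-deficient groups, labelled Jnk1-/- Jnk2-/-, were Jnk1flox/flox Jnk2-/- Rosa-CreER cells, and the control groups were Rosa-CreER cells. Cells of each genotype were either kept in suspension for 4 hours or left as attached monolayers. All were labelled as kidney epithelial cells of strain C57BL/6, and both genotypes carry Rosa-CreER, a Cre recombinase fused to an estrogen receptor fragment. The labels give neither the agent nor the time of Cre activation, and whether a group's samples came from separate animals or cultures is not stated.

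The deposited tables hold 1 FPKM value per group and no value per sample, so no SD can be given, the depth of each library is unknown, and the spread behind a q-value cannot be seen. The p-values and q-values are the authors' own and measure the spread between these samples, which may be technical. A gene is said to have risen or fallen where its q-value was below 0.05. Log2 fold changes have the suspended or the JNK-deficient group on top. The control groups chose the members, so the change between suspended and attached control cells is given as a description with no test, and the tests of suspension are those in JNK-deficient cells.

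Both targeted genes were below their control level in JNK-deficient cells. Mapk8, which encodes JNK1, was at 2.52 FPKM in suspended JNK-deficient cells against 10.9 FPKM in suspended control cells, and at 2.26 FPKM in attached JNK-deficient cells against 8.76 FPKM in attached control cells. Mapk9, which encodes JNK2, differed less, with log2 fold changes of -0.74 in suspended and -0.52 in attached cells, both past the threshold. These levels cover the whole gene and do not show which exons were read. All 7 epithelial markers were above 1 FPKM, while 6 of 8 nephron segment markers, 4 of 8 leukocyte markers, 5 of 7 fibroblast and smooth muscle markers and 4 of 5 endothelial markers were below 1 FPKM in all 4 groups. Aqp1, the water channel of proximal tubule and thin limb, was at 192 and 342 FPKM in suspended and attached JNK-deficient cells. It was at 45.7 and 119 FPKM in suspended and attached control cells. Umod, the other segment marker above 1 FPKM, was at 3.98 and 1.06 FPKM in suspended and attached JNK-deficient cells. In control cells Umod had 0.383 and 0.238 FPKM. Both were called higher in JNK-deficient cells, with log2 fold changes of 2.12 and 1.61 (Aqp1) and 3.42 and 2.24 (Umod), suspended and attached. Lrp2, the endocytic receptor megalin of proximal tubule, was at most at 0.16 FPKM. The part of such differences in the genotype results was not tested. Ptprc, the pan-leukocyte marker CD45, was at 10.7 and 1.05 FPKM in suspended and attached JNK-deficient cells, and at 8.92 and 1.14 FPKM in suspended and attached control cells. Of the other 3 leukocyte markers above 1 FPKM, Csf1r and Cd68, both macrophage genes, also rose with suspension in JNK-deficient cells, Csf1r to 7.97 against 1.47 FPKM and Cd68 to 30.8 against 14.03 FPKM, and Cd14 fell to 28.4 against 61.3 FPKM. In control cells Csf1r had 3.87 and 0.572 FPKM, Cd68 34.5 and 15.1 FPKM and Cd14 22.5 and 38.9 FPKM, suspended and attached. The summed FPKM of the leukocyte markers, in which Cd14 offsets the others, was 77.9 in suspended and 77.9 in attached JNK-deficient cells, and 70.1 in suspended and 55.7 in attached control cells. The part of such cells in the results was not tested.

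Among the members, levels ran over several orders of magnitude. In attached JNK-deficient cells the median was 9.17 FPKM, 83 members reached 10 FPKM and 11 reached 100 FPKM. The highest was the entry that joins Slc5a3, the sodium-coupled carrier of the osmolyte myo-inositol, with Mrps6, at 662.0 FPKM. It was followed by the mitochondrial phosphate carrier Slc25a3 at 406 FPKM and the ADP/ATP carriers Slc25a5 and Slc25a4 at 321 and 262 FPKM. Summed over all 175, the members came to 4701 FPKM in suspended and 5199.5 FPKM in attached JNK-deficient cells, and to 4524 FPKM in suspended and 4882 FPKM in attached control cells. By the higher of their control values, the members nearest to the level of 1 FPKM were Slc17a9, Slc27a3 and Slc2a6 inside it at 1.04, 1.05 and 1.11 FPKM, and the nearest outside it were Slc4a9, Slc24a3 and Slc7a3 at 0.970, 0.965 and 0.942 FPKM.

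Suspension moved many solute carriers in both directions. In JNK-deficient cells 59 of 175 members rose and 56 fell, while 60 did not pass the threshold. Over all entries the authors tested in that comparison, 30.6% rose and 29.0% fell, and 59.7% were called in either direction. The members' counts were near that background. Their median log2 fold change was -0.01, against 0.04 over all entries tested. By 2-fold or more, 65 of the 175 members differed, beside 3808 of 13050 entries tested, and these counts were not tested against each other. Some of these calls follow from the choice of members. Of 15 members that reached 1 FPKM in suspended control cells only, 10 rose and none fell in JNK-deficient cells, and of 6 that reached it in attached control cells only, 5 fell and none rose. The first are Slc2a6, Slc6a17, Slc7a9, Slc9a2, Slc16a6, Slc16a7, Slc17a9, Slc22a21, Slc26a4, Slc27a3, Slc37a2, Slc39a8, Slc41a2, Slc46a3 and Slc47a1. The second are Slc16a4, Slc18a2, Slc25a21, Slc25a29, Slc29a2 and Slc29a4. Their suspension values below are descriptions, and the class counts and medians below include them. In control cells the same q-value rule, read here as a count only, marked 68 members as higher and 55 as lower in suspension, beside 33.0% and 32.1% of all entries (65.1% in either direction).

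**Figure D1:**
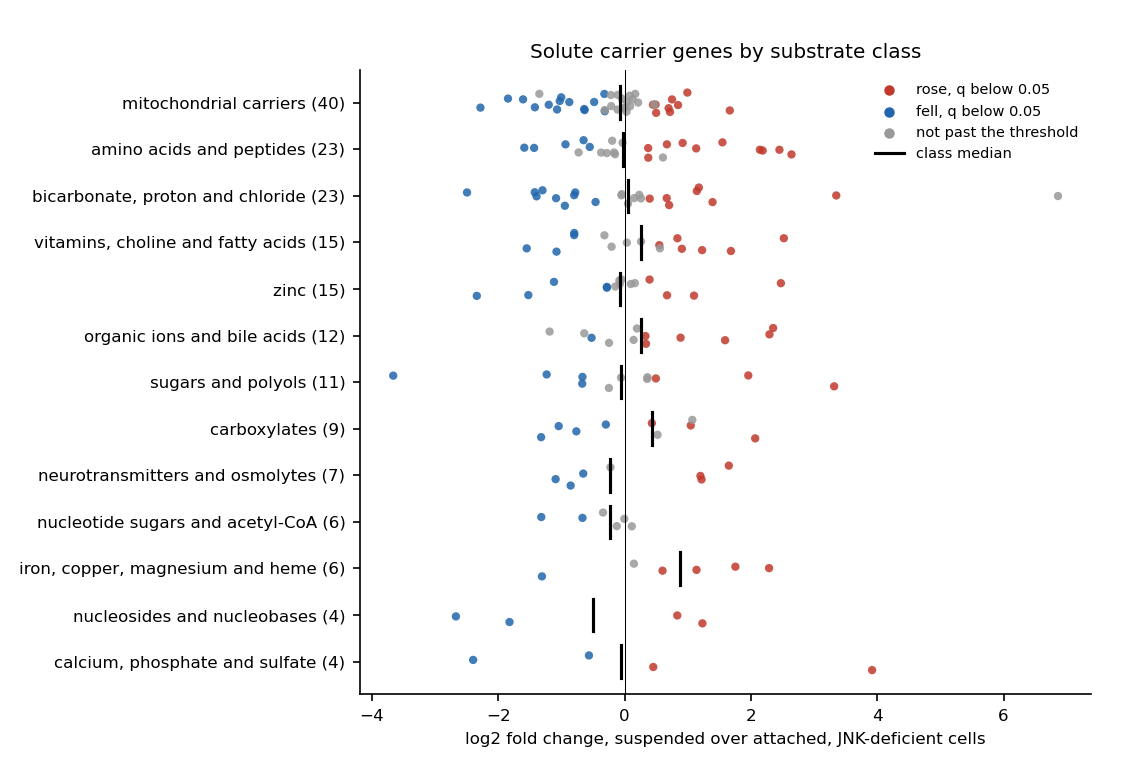
Log2 fold change of each of the 175 solute carrier entries (points), suspended over attached, in JNK-deficient cells, with 1 row per substrate class and the number of members in brackets. Red points rose and blue points fell at a q-value below 0.05, grey points did not pass, and black bars mark class medians; most classes hold rises and falls side by side.

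The largest rise and the largest fall past the threshold were of a phosphate carrier and a sugar carrier. Slc20a1 (PiT-1, a sodium-coupled importer of phosphate; chr2:129198773-129211612 on mm10) was at 103 FPKM in suspended and 6.81 FPKM in attached JNK-deficient cells, a log2 fold change of 3.92 (q = 0.000144, the lowest in the authors' deposited table). Control cells had 138 FPKM in suspension and 8.53 FPKM attached. Slc45a3 (a proton-coupled sugar carrier family member; chr1:131962967-131982964) was at 9.06 FPKM in suspended and 115 FPKM in attached JNK-deficient cells, a log2 fold change of -3.66 with the same q-value, and at 7.96 and 63.7 FPKM in suspended and attached control cells. In both genotypes the direction was the same for both genes. Exons of Slc20a1 and Slc45a3 share 13.1% and 13.5% of their bases with exons of other genes, so part of their fragments cannot be assigned with certainty.

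The RefSeq promoter windows (build GRCm38.p6, from 250 bases before to 50 bases after a gene's start) of these 2 genes are shown with those of 2 amino acid carriers that rose, Slc1a4 and Slc36a1, the last chosen after its values were seen. Capitals mark matches on either strand, and N is any base. In Slc20a1 (chr2:129198523-129198822, plus strand) they mark TGCNCNC, a loose form of the metal response element core. In Slc45a3 (chr1:131962665-131962964, plus strand) they mark the antioxidant response element core TGACNNNGC. In Slc1a4 (chr11:20332664-20332963, minus strand) they mark the C/EBP-ATF response element core TGATGNAA. In Slc36a1 (chr11:55204090-55204389, plus strand) they mark the CLEAR element core TCACGTGA, the lysosomal gene motif.
Slc20a1: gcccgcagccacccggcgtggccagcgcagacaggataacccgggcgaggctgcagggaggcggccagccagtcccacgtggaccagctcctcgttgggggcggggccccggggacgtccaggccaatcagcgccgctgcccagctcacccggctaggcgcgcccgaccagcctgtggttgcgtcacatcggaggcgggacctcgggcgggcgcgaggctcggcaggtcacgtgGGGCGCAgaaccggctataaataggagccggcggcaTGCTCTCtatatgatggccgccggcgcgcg
Slc45a3: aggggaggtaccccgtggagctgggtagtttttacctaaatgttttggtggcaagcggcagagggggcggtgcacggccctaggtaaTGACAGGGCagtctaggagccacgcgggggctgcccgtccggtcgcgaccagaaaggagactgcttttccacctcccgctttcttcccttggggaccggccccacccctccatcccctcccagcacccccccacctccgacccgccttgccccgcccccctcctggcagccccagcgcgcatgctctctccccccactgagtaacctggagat
Slc1a4: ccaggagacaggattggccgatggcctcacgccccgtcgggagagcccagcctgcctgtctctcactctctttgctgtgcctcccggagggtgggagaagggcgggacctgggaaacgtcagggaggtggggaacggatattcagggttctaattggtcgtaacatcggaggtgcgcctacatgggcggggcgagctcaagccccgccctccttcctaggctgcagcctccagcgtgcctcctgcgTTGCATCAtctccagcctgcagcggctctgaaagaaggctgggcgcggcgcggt
Slc36a1: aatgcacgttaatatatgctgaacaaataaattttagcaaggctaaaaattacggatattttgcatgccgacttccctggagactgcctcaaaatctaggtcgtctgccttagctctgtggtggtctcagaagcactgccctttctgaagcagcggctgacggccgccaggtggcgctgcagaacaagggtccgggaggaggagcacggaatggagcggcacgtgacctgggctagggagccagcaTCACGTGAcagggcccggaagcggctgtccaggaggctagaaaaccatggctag
Slc20a1 and Slc45a3 have 2 windows each, of which 1 is shown. In each window 1 motif is marked, and others are present unmarked. The Slc45a3 window also holds 2 matches to the loose metal core, as many as the Slc20a1 window. The Slc36a1 window also holds 1 match to the antioxidant core. Such matches are descriptions of letters, and none shows binding. Windows were found for 133 of the 175 members, 186 windows in all. The shares that follow count windows, so a gene with several windows enters more than once. The 32851 windows of all genes were not limited to expressed genes. The antioxidant core stood in 20.4% of the members' windows against 12.4% of all 32851 windows. The loose metal core stood in 55.4% against 51.0%, the C/EBP-ATF core in 2.69% against 3.97% and the CLEAR core in 2.15% against 0.974%. The AP-1 site TGANTCA, the motif bound by Jun and Fos proteins, stood in 5.91% of the members' windows against 7.81% of all, and overlapped an antioxidant match in 1 of the 186. By outcome in suspended JNK-deficient cells, the antioxidant core stood in 22.7% of the windows of members that rose, 23.6% of those that fell and 15.4% of those that did not pass.

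The amino acid and peptide carriers held 10 rises and 5 falls among 23 members, with a median log2 fold change of -0.03. Slc43a2 (a facilitator of large neutral amino acids; chr11:75531694-75577572) stood at 40.9 FPKM in suspended and 6.55 FPKM in attached JNK-deficient cells, a log2 fold change of 2.64, and at 36.8 and 5.42 FPKM in suspended and attached control cells. Slc1a4 (the neutral amino acid exchanger ASCT1; chr11:20302180-20332713) reached 94.4 FPKM in suspended against 17.3 FPKM in attached JNK-deficient cells, a log2 fold change of 2.45. In control cells it had 52.5 FPKM in suspension and 15.2 FPKM attached. Slc6a17, a neutral amino acid carrier known from synaptic vesicles, was at 4.88 and 1.11 FPKM in suspended and attached JNK-deficient cells. Some carriers known from the lysosome were looked at after their values were seen. Slc36a1 (proton-coupled exporter of small amino acids) had 7.59 against 3.46 FPKM, Slc38a7 (glutamine exporter) 11.6 against 7.28 FPKM and Slc38a9 (arginine sensor of mTORC1) 2.21 against 1.17 FPKM, suspended against attached JNK-deficient cells, and these 3 rose. Slc15a4, a lysosomal carrier of peptides and histidine, had 8.22 against 9.23 FPKM and did not pass. Slc38a6 also rose, with 165 against 56.3 FPKM.

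Falls in the amino acid class included carriers of the plasma membrane. Slc38a2 (the sodium-coupled neutral amino acid carrier SNAT2) had the highest attached level of the class and was at 92.5 FPKM in suspended and 145 FPKM in attached JNK-deficient cells, a log2 fold change of -0.65. The cationic amino acid carrier Slc7a1 had 15.7 FPKM in suspended and 42.5 FPKM in attached JNK-deficient cells (-1.43 on the log2 scale), and Slc7a6, a light chain that exchanges cationic for neutral amino acids, had 15.8 and 47.5 FPKM (-1.59). Slc3a2, the heavy chain that pairs with Slc7a6, was at 84.1 FPKM in suspended and 86.0 FPKM in attached JNK-deficient cells and did not pass the threshold. Slc38a10 fell to 26.1 FPKM in suspended against 49.99 FPKM in attached JNK-deficient cells. That call is lost after a correction for transcript GC content and length, in which its change is -0.20.

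The carriers of bicarbonate, protons and chloride held 7 rises and 9 falls among 23 members, with a median of 0.05. Slc4a11, a proton and water carrier whose human mutations cause corneal dystrophy, was the most abundant, at 90.7 FPKM in suspended and 238 FPKM in attached JNK-deficient cells and 103 and 235 FPKM in suspended and attached control cells. Its log2 fold change in JNK-deficient cells was -1.39. Slc12a9, a relative of the cation-chloride cotransporters, had a log2 fold change of -2.496, with 1.81 FPKM in suspended and 10.2 FPKM in attached JNK-deficient cells. The potassium-chloride cotransporter Slc12a4 had 19.6 and 52.5 FPKM (-1.42), and loses its call after the correction, with -0.69. Of 6 members of the bicarbonate carrier family Slc4, 4 fell and none rose: besides Slc4a11 these were Slc4a7, Slc4a2 and Slc4a3. After that correction Slc4a2 and Slc4a3 no longer pass and their changes turn sign, to 0.20 and 0.49 on the log2 scale, against -0.80 and -1.30 before it, so only the falls of Slc4a11 and Slc4a7 remain.

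Rises in this class were of sulfate, chloride and sodium-proton carriers. Slc26a2 (sulfate carrier) had 6.29 FPKM in suspended and 2.40 FPKM in attached JNK-deficient cells, a log2 fold change of 1.39. Slc12a2 (the sodium-potassium-chloride cotransporter NKCC1) had 40.4 and 24.8 FPKM (0.70), and Slc9a8 (a sodium-proton exchanger of apical and endosomal membranes) 13.5 and 8.48 FPKM (0.67). Slc26a1, a sulfate and oxalate exchanger of the proximal tubule, rose to 2.44 FPKM in suspended against 0.239 FPKM in attached JNK-deficient cells (log2 fold change 3.35, q = 0.00242 per the authors' deposited table). Slc26a4 (pendrin) was at 1.32 FPKM in suspended and 0.0114 FPKM in attached JNK-deficient cells and did not pass.

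Of 4 carriers in the class of calcium, phosphate and sulfate, 2 rose and 2 fell. All 4 carry phosphate or calcium, since the sulfate carriers Slc26a1 and Slc26a2 were counted with bicarbonate, protons and chloride. Beside Slc20a1, its close relative Slc20a2 (PiT-2) rose to 38.9 FPKM in suspended against 28.4 FPKM in attached JNK-deficient cells, a log2 fold change of 0.45 (q = 0.00134 per the authors' deposited table), beside the 3.92 of Slc20a1. Slc34a2, the sodium-phosphate cotransporter NaPi-IIb of another family, fell to 1.48 FPKM against 7.80 FPKM. Slc24a6, the sodium-calcium exchanger of mitochondria, fell to 7.63 FPKM in suspended against 11.3 FPKM in attached JNK-deficient cells.

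The carboxylate carriers held 3 rises and 4 falls among 9 members. Slc16a10 (the aromatic amino acid carrier TAT1) rose to 13.6 FPKM in suspended against 3.25 FPKM in attached JNK-deficient cells, a log2 fold change of 2.07. Slc16a1, the lactate and pyruvate carrier MCT1, rose to 22.9 against 17.0 FPKM, and loses that call after the correction, with a change of 0.17. Slc16a12, a creatine carrier, fell to 66.4 FPKM in suspended against 81.7 FPKM in attached JNK-deficient cells (log2 fold change -0.30, q = 0.0161 per the authors' deposited table). Slc16a13 fell to 5.40 against 9.17 FPKM, and Slc5a8, a sodium-coupled importer of short carboxylates, to 2.06 against 4.24 FPKM. The correction moves the change of Slc16a13 to 0.0558.

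In the class of iron, copper, magnesium and heme, 4 of 6 members rose and 1 fell. These members carry copper, magnesium or heme, and none is an iron carrier. The class median of 0.87 was the highest of the 13 classes, a description over few genes. Slc48a1 (HRG1, which moves heme out of lysosomes; chr15:97784365-97844502) was at 268 FPKM in suspended and 79.3 FPKM in attached JNK-deficient cells, a log2 fold change of 1.75, and at 161 and 40.3 FPKM in suspended and attached control cells. Of the magnesium carrier family Slc41, Slc41a1 rose to 13.3 FPKM in suspended against 8.78 FPKM in attached JNK-deficient cells and Slc41a3 to 2.25 against 1.02 FPKM. Slc41a2, a member by its suspended control level alone, had 1.55 against 0.317 FPKM, and is counted among the rises and in the class median. Copper carriers differed: Slc31a2, a copper carrier of endosomes and lysosomes, fell to 9.46 against 23.5 FPKM, while Slc31a1, the main copper importer of the cell surface, had 10.8 against 9.77 FPKM and did not pass.

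The mitochondrial carriers, family Slc25, were the largest class, with 9 rises and 14 falls among 40 members, a median of -0.08 and a range of -2.28 to 1.67. The most abundant of them had small changes. Slc25a3 (phosphate) had 377 FPKM in suspended and 406 FPKM in attached JNK-deficient cells, Slc25a5 (ADP/ATP) 311 and 321 FPKM, and neither passed the threshold. Slc25a4, the ADP/ATP carrier of heart and muscle, fell to 188 against 262 FPKM. Slc25a1, which exports citrate for lipid synthesis, rose to 142 FPKM in suspended against 79.1 FPKM in attached JNK-deficient cells, a log2 fold change of 0.85. Slc25a30, known as kidney mitochondrial carrier protein, rose to 56.3 against 28.3 FPKM (0.99), and Slc25a27, an uncoupling protein homologue, to 3.10 against 0.976 FPKM (1.67). Slc25a48 (chr13:56438355-56472363) fell to 15.0 FPKM in suspended against 73.3 FPKM in attached JNK-deficient cells (-2.28), beside 11.3 and 47.8 FPKM in suspended and attached control cells. The dicarboxylate carrier Slc25a10 and the glutamate carrier Slc25a22 fell by 1.85 and 1.42 on the log2 scale, and both lose the call after the correction, with -0.52 and -0.56.

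Carriers of neurotransmitters and osmolytes held 3 rises and 3 falls among 7 members. The creatine carrier Slc6a8 rose to 37.1 FPKM in suspended against 16.1 FPKM in attached JNK-deficient cells (log2 fold change 1.20), with 63.0 and 20.7 FPKM in suspended and attached control cells. Slc18a1, a vesicular monoamine carrier, rose to 9.24 against 3.97 FPKM (q = 0.035 per the authors' deposited table). The taurine carrier Slc6a6 fell to 28.1 against 44.3 FPKM, and its change is 0.18 after the GC correction. Of the 4 nucleoside carriers, family Slc29, Slc29a1 (the plasma membrane carrier ENT1) rose to 9.49 against 4.04 FPKM and Slc29a3 (the lysosomal ENT3) to 7.84 against 4.40 FPKM in JNK-deficient cells. The other 2, Slc29a2 and Slc29a4, members by their attached control level alone, had 0.182 and 0.255 FPKM in suspended against 1.16 and 0.903 FPKM in attached JNK-deficient cells.

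The nucleotide sugar and acetyl-CoA carriers, which feed the Golgi apparatus and endoplasmic reticulum, had no rise and 2 falls among 6 members. Slc33a1 (acetyl-CoA) fell to 24.3 FPKM in suspended against 60.8 FPKM in attached JNK-deficient cells (log2 fold change -1.32), but shares 32.02% of its exon bases with another gene. Slc35a4 fell to 24.1 against 38.3 FPKM, and loses the call after the correction, with -0.20. Slc35a1, Slc35a2 and Slc35a3, which carry CMP-sialic acid, UDP-galactose and UDP-N-acetylglucosamine, had log2 fold changes of -0.34, 0.11 and -0.01 and did not pass.

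Carriers of organic ions and bile acids held 6 rises and 1 fall among 12 members, with a median of 0.26. Slc22a4 (the ergothioneine carrier OCTN1; chr11:53983126-54028090) rose to 16.2 FPKM in suspended against 3.30 FPKM in attached JNK-deficient cells, a log2 fold change of 2.29. Its relatives Slc22a5 (the carnitine importer OCTN2) and Slc22a23 also rose, Slc22a5 to 9.92 against 5.37 FPKM and Slc22a23 to 38.7 against 12.9 FPKM. Slc22a4, Slc22a5 and Slc22a21 lie close together on chromosome 11. Slc10a3, on an entry joined with Ubl4, had the highest level of the class, with 39.2 FPKM in suspended against 31.0 FPKM in attached JNK-deficient cells (q = 0.021 per the authors' deposited table). The fall was of Slc17a1, an apical anion and urate carrier of the proximal tubule, with 3.67 against 5.28 FPKM (q = 0.0334 per the authors' deposited table).

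The sugar and polyol carriers held 3 rises and 4 falls among 11 members. Of these rises, Slc2a6 and Slc37a2 are of members by their suspended control level alone. Slc5a3 with Mrps6 fell to 281 FPKM in suspended against 662.0 FPKM in attached JNK-deficient cells (log2 fold change -1.23), and had 202 and 484 FPKM in suspended and attached control cells. The joined entry does not show which of the pair moved. Slc45a4 fell to 14.5 against 23.1 FPKM. Slc37a4, the glucose 6-phosphate carrier of the endoplasmic reticulum, rose to 9.43 against 6.69 FPKM (q = 0.0155 per the authors' deposited table). Slc2a6, a lysosomal glucose carrier and a member by its suspended control level alone, had 1.51 FPKM in suspended and 0.152 FPKM in attached JNK-deficient cells.

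Among 15 carriers of vitamins, choline and fatty acids, 6 rose and 4 fell, with a median of 0.26. The vitamin C importer Slc23a2 rose to 25.2 FPKM in suspended against 7.85 FPKM in attached JNK-deficient cells (log2 fold change 1.68), the choline carrier Slc44a1 to 39.3 against 16.8 FPKM (1.23) and the fatty acid carrier Slc27a1 to 16.6 against 8.84 FPKM (0.91). Slc44a2, a choline carrier with the highest level of the class, had 95.2 and 110 FPKM in suspended and attached JNK-deficient cells and did not pass. The riboflavin carrier Slc52a2 fell to 2.64 against 7.74 FPKM (-1.55). The folate carrier Slc19a1 and the fatty acid carrier Slc27a4 fell by 1.08 and 0.80, calls lost after the correction, with -0.37 and -0.18.

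Of 15 zinc carriers, 4 rose and 5 fell. Family Slc30 moves zinc out of the cytosol and family Slc39 brings it in. Slc30a5 and Slc30a4, which load zinc into the secretory pathway and vesicles, rose to 63.6 and 44.0 FPKM in suspended against 29.7 and 27.6 FPKM in attached JNK-deficient cells. Slc39a14, an importer of zinc and iron, rose to 11.7 against 8.88 FPKM (q = 0.0117 per the authors' deposited table). Slc39a10, a zinc importer of the plasma membrane (chr1:46807544-46853509), fell to 9.72 FPKM in suspended against 27.99 FPKM in attached JNK-deficient cells, a log2 fold change of -1.53, with 9.74 and 38.9 FPKM in suspended and attached control cells. Slc39a13 and Slc39a11 fell by 2.34 and 1.12, and both lose the call after the correction, with -0.95 and 0.45. Slc39a7, which releases zinc from the endoplasmic reticulum, had 109 against 113 FPKM, on an entry joined with H2-Ke6 that shares 80.7% of its exon bases with another annotated gene.

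Carriers that bear other names, and proteins that pair with carriers or regulate them, were counted beside the members. Over all entries tested, 30.6% rose and 29.0% fell with suspension in JNK-deficient cells. Of 16 tested carriers with other names, 4 rose and 5 fell with suspension in JNK-deficient cells. Slco4a1, an organic anion carrier, fell to 21.4 FPKM in suspended against 220 FPKM in attached JNK-deficient cells (log2 fold change -3.36), and Spns2, an exporter of sphingosine 1-phosphate, to 85.1 against 327 FPKM (-1.94). Ctns, the lysosomal cystine exporter, rose to 13.0 against 6.02 FPKM and Xpr1, the phosphate exporter, to 16.2 against 7.68 FPKM, so the importer Slc20a1 and the exporter Xpr1 of phosphate were both higher in suspension. Of 20 tested partners and regulators, 5 rose and 10 fell. The lists were chosen with earlier results of these data known, and their counts were not tested against the background. Fxyd2, the kidney subunit that modulates the sodium pump, fell to 1285 FPKM in suspended against 3164 FPKM in attached JNK-deficient cells, and Slc9a3r2, a scaffold of the sodium-proton exchanger, to 6.78 against 14.7 FPKM. Txnip, which drives internalisation of glucose carriers, rose to 294 against 121 FPKM.

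Transcripts rich in G and C ran lower in suspension, and the solute carriers followed that trend in part. Over all genes tested, the Spearman rho between transcript GC content and the log2 fold change in JNK-deficient cells was -0.40 (11505 genes that share the same libraries, so no p is given). Over the 174 members with a GC value it was -0.22. Members that fell had a median GC content of 54.8%, those that rose 50.9% and those that did not pass 51.5%. After the trend over all genes with GC content and transcript length was removed, rho was 0.005 over all genes and 0.19 over the members. For the members the correction thus went past 0, and GC-rich members were left somewhat higher than the others. Of the 59 rises, 54 kept their call and direction. Of the 56 falls, 27 kept theirs, 27 no longer passed, and Slc24a6 had no GC value. With newly called members counted, 68 members rose and 35 fell after the correction. Among the named members that lost a call, the adjusted p-values after correction, derived from the authors' p-values, ran between 0.0862 for Slc12a4 and 0.825 for Slc16a13. Where the authors' p-value stood at the lowest step, 5e-05, the derived standard error is an upper bound. Slc12a4, Slc25a10, Slc25a22 and Slc39a13 are among these, so their lost calls do not show that no fall remained. The part of GC content and length in the results was not tested beyond this. Slc20a1, Slc43a2, Slc1a4, Slc48a1, Slc45a3, Slc25a48 and Slc39a10 kept their calls, with corrected log2 fold changes of 3.69, 3.47, 2.56, 2.27, -3.18, -2.02 and -1.54.

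**Figure D2:**
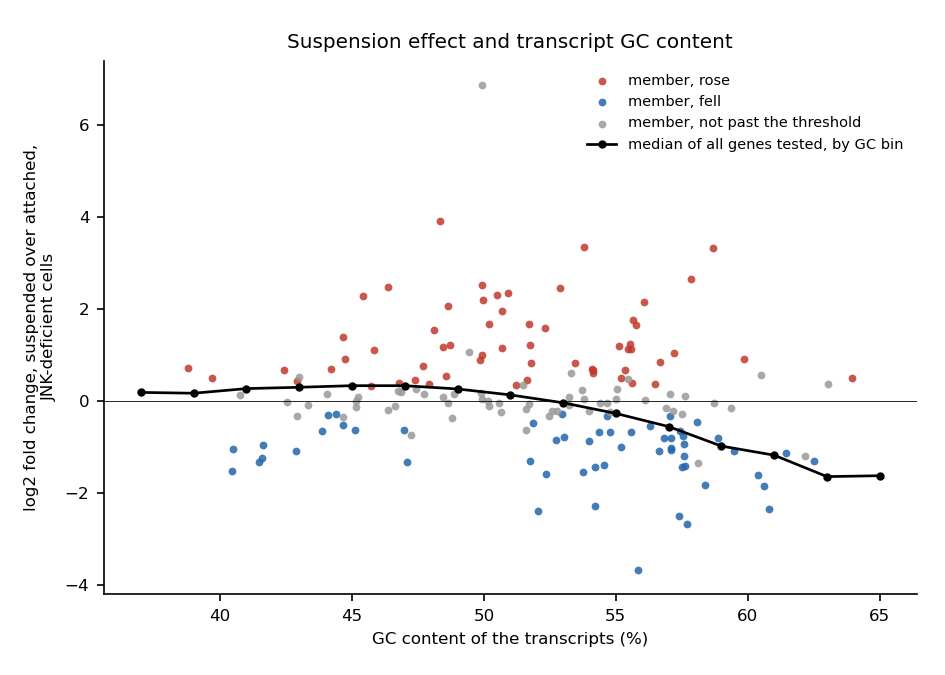
Log2 fold change, suspended over attached in JNK-deficient cells, against the GC content of each member's transcripts (points, coloured by call), with the median of all genes tested in bins of GC content (black line). The line runs above 0 in the bins up to 52% GC and falls to -1.64 between 62% and 64%. It stands at -1.62 in the highest bin, and many blue points lie on its falling side.

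Many members were called in the same direction in both genotypes. All 175 members were tested in both suspension tables. Of these, 54 were called higher in suspension in JNK-deficient and control cells alike, 45 were called lower in both, and 37 in neither. These are 30.9%, 25.7% and 21.1% of the members, beside 26.5%, 26.2% and 27.1% of the 12855 entries tested in both tables, so the members' shares were near the background. A single member, Slc5a8, was called lower in suspended JNK-deficient cells and higher in suspended control cells, and none the other way round. The remaining members were called in one genotype, which does not show that the genotypes differed.

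**Figure D3:**
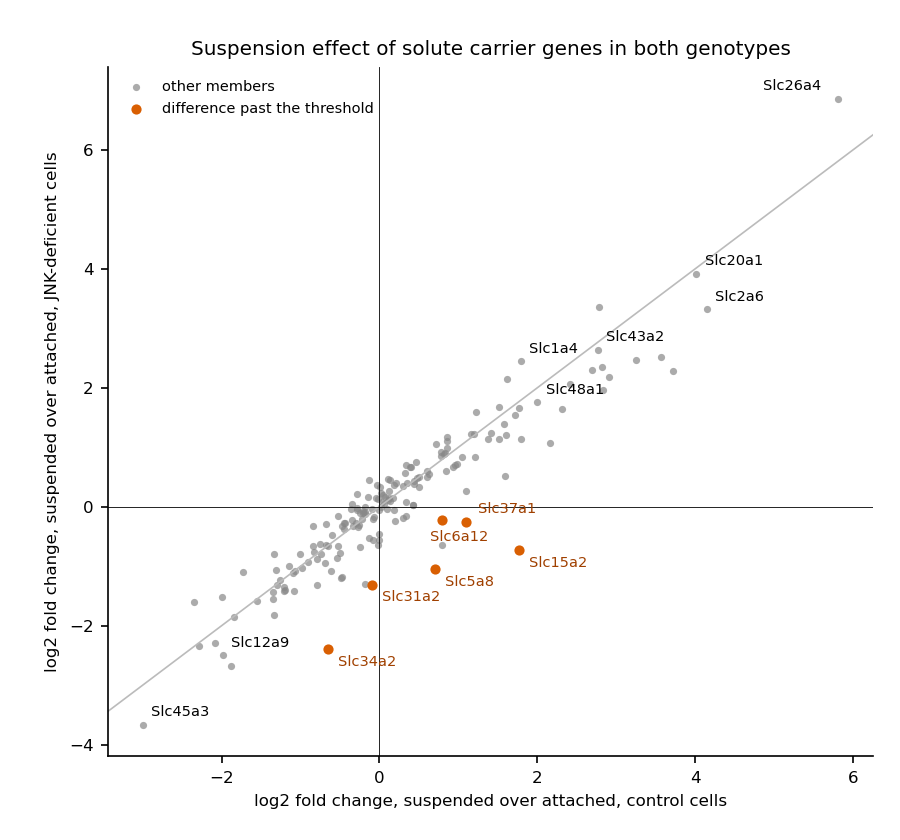
Log2 fold change, suspended over attached, in JNK-deficient cells (vertical) against control cells (horizontal) for the 175 members, with the diagonal of equal change. The 6 members whose 2 changes differed past the threshold (orange) all lie below the diagonal.

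Whether suspension acted differently on the genotypes was tested over 12867 entries, as the log2 change in JNK-deficient cells minus that in control cells. The two-sided z-test took its standard errors from the authors' deposited p-values and the size of the changes. It passed an adjusted p of 0.05 for 6 members, each with a negative difference. The control change that the test subtracts comes from the values that chose the members, so neither this count nor its direction is independent of that choice. Of the 6, Slc15a2 was below 1 FPKM in both JNK-deficient groups, and the other 5 were above it in all 4 groups. Over all entries, 1.24% were called negative and 0.544% positive (1.79% in either direction). The members' median difference was -0.02, against 0.04 over all entries tested. For all 6, a p-value stood at the lowest step of the authors' tables, both in the suspension and in the genotype comparisons. Each derived standard error is then an upper bound, and the smaller of them was used. Results with the larger are given below.

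Slc15a2, the peptide carrier PEPT2 of the proximal tubule (chr16:36750164-36784962), had 0.413 FPKM in suspended and 0.684 FPKM in attached JNK-deficient cells, and 3.77 FPKM in suspended and 1.11 FPKM in attached control cells. The suspended control cells stood apart from the other groups. Its log2 changes were -0.73 and 1.76, a difference of -2.49 ± 0.55 (SE). Slc5a8 (chr10:88885992-88929515) had 2.06 and 4.24 FPKM in suspended and attached JNK-deficient cells, against 2.53 and 1.55 FPKM in suspended and attached control cells, a difference of -1.75 ± 0.31 (SE). Slc34a2 (chr5:53049353-53071663) had 1.48 and 7.80 FPKM in suspended and attached JNK-deficient cells, and 2.27 and 3.58 FPKM in suspended and attached control cells. It was lower in suspension in both genotypes, with a difference of -1.74 ± 0.40 (SE). The adjusted p-values, derived from the authors' p-values, were 0.00173 for Slc15a2, 5.39e-05 for Slc5a8 and 0.00291 for Slc34a2.

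For the other members of the 6, the 2 groups of one genotype lay close together. Slc37a1, a sugar phosphate carrier, had 6.98 and 8.29 FPKM in suspended and attached JNK-deficient cells, and 14.6 and 6.82 FPKM in suspended and attached control cells, a difference of -1.34 ± 0.27 (SE). Slc31a2 had 9.46 and 23.5 FPKM in suspended and attached JNK-deficient cells, and 15.4 and 16.4 FPKM in suspended and attached control cells, a difference of -1.22 ± 0.25 (SE). Slc6a12, the betaine carrier of the renal medulla, had 15.7 and 18.3 FPKM in suspended and attached JNK-deficient cells, against 20.2 and 11.6 FPKM in suspended and attached control cells. Its difference was -1.02 ± 0.25 (SE). The adjusted p-values, derived in the same way, were 0.000326 for Slc37a1, 0.000547 for Slc31a2 and 0.00608 for Slc6a12. With the larger of the derived standard errors, Slc15a2, Slc34a2 and Slc31a2 no longer pass, and their adjusted p-values are 0.202, 0.356 and 0.101. With those of the suspension tables alone Slc34a2 and Slc31a2 do not pass, at 0.252 and 0.0524.

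**Figure D4:**
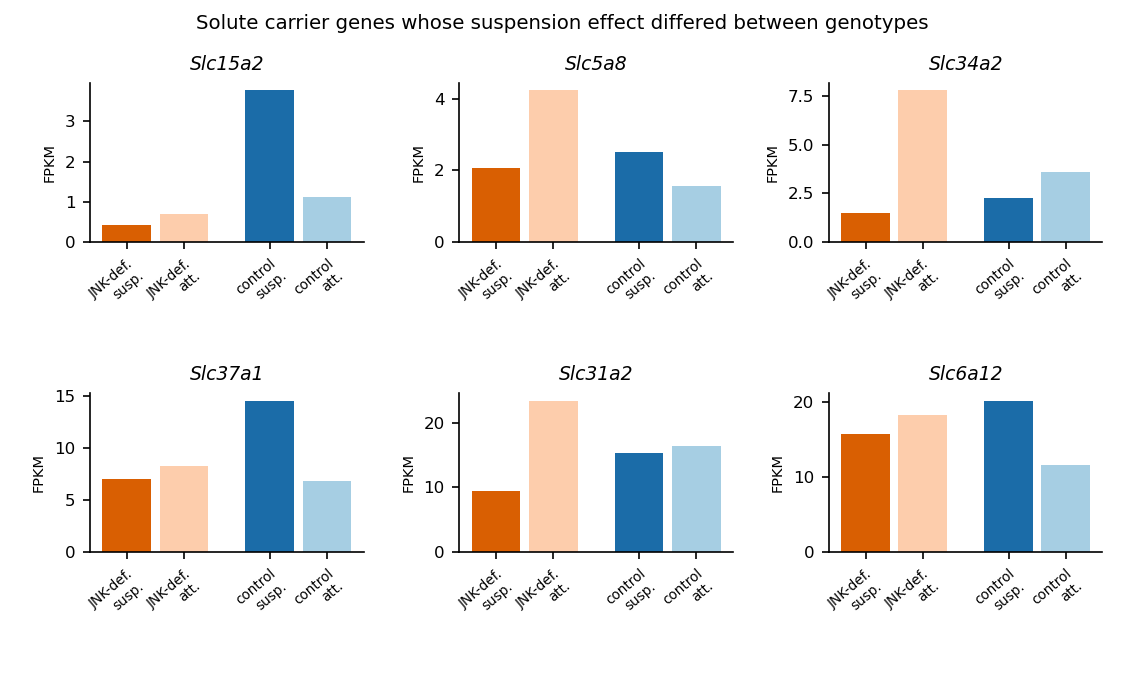
FPKM of the 6 members whose suspension effect differed between genotypes, from the suspension tables, with 1 bar per group: suspended and attached JNK-deficient cells (dark and light orange), then suspended and attached control cells (dark and light blue). Each bar is the authors' single value for a group, so no error bar can be drawn; the vertical scale differs between panels.

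In attached cells, where the genotypes differed without detachment, 38 members were higher and 26 lower in JNK-deficient than in control cells, of 169 tested. Over all entries tested, 14.7% were higher and 14.1% lower (28.8% in either direction). The members' median log2 fold change was 0.07, against 0.00 over all entries, and the differences were small: with a fold of at least 1.5 required, 17 were higher and 9 lower. The control samples entered the choice of members by their level: 7 members were below 1 FPKM in both JNK-deficient groups, and 5 of the 26 lower ones are among them. The amino acid and peptide carriers held 9 members that were higher and 3 that were lower of 22 tested, and the carboxylate carriers 4 and 2 of 9. Mitochondrial carriers held 5 and 6 of 40, and zinc carriers 1 and 3 of 14.

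Slc16a12, the creatine carrier (chr19:34668406-34747111), was at 81.3 FPKM in attached JNK-deficient against 30.6 FPKM in attached control cells, a log2 fold change of 1.41 (q = 0.000347, the lowest in the authors' deposited table). Slc5a8 had 4.22 against 1.46 FPKM (1.53), Slc34a2 7.76 against 3.37 FPKM (1.20), Slc48a1 78.9 against 37.9 FPKM (1.06) and Slc45a3 114 against 59.8 FPKM (0.93), all higher in attached JNK-deficient cells with that q-value. Slc6a19, the apical neutral amino acid carrier of the proximal tubule, had 7.69 against 4.04 FPKM (0.93), Slc22a4 3.28 against 1.76 FPKM (0.90) and Slc4a7, a sodium-bicarbonate cotransporter, 36.8 against 20.1 FPKM (0.87). Slc5a3 with Mrps6 was at 659 FPKM in attached JNK-deficient and 454 FPKM in attached control cells.

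The members that were lower in attached JNK-deficient cells ranged in level between 0.237 FPKM (Slc26a1) and 56.0 FPKM (Slc38a6, against 67.2 FPKM in control cells). Slc44a3, of the choline carrier family, had 5.85 FPKM in JNK-deficient against 12.8 FPKM in control cells (log2 fold change -1.13). The second entry of the mitochondrial iron carrier Slc25a37 had 2.90 against 6.22 FPKM (-1.10), and the first, which can share fragments with it, 14.8 against 18.1 FPKM (-0.29). Slc14a2 (the urea carrier of the inner medulla) and Slc7a7 (a light chain that exports cationic amino acids) fell by 0.62 and 0.61, Slc22a23 by 0.49, Slc22a17 by 0.48, Slc25a25 by 0.44 and Slc39a10 by 0.39. Slc26a1, Slc52a3 and Slc16a5, below 3 FPKM in both groups, and Slc52a3 a member by its control levels alone, had 0.237 against 1.28, 0.415 against 1.45 and 1.10 against 2.79 FPKM in attached JNK-deficient against attached control cells.

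In suspended cells fewer entries were called between the genotypes, while more differed by 2-fold or more: 13 members in suspended and 9 in attached cells, and 1043 and 668 of all entries tested. These counts were not tested against each other. Of 171 members tested, 14 were higher and 16 lower in JNK-deficient cells, beside 5.57% and 6.93% of all entries tested (12.5% in either direction). The median log2 fold change was 0.02 for the members and 0.01 over all entries. Slc16a12 was at 70.1 FPKM in suspended JNK-deficient against 20.8 FPKM in suspended control cells, a log2 fold change of 1.75 (q = 0.00099, the lowest in the authors' deposited table). Slc6a17 had 5.13 against 2.24 FPKM (1.19), Slc1a4 99.3 against 53.3 FPKM (0.90), Slc48a1 282 against 164 FPKM (0.78) and Slc44a4 13.0 against 7.24 FPKM (0.84). Slc6a19 had 6.28 against 3.21 FPKM (0.97, q = 0.00533 per the authors' deposited table), and Slc4a7 and Slc27a4 were higher by 0.59 and 0.57.

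Of the 16 that were lower in suspended JNK-deficient cells, 3 were below 1 FPKM in both JNK-deficient groups and are members by their control levels alone, so their values are a description. Among them, Slc15a2 had 0.436 FPKM in JNK-deficient against 3.84 FPKM in control cells (log2 fold change -3.14) and Slc52a3, a riboflavin carrier, 0.525 against 3.34 FPKM (-2.67). Slc26a1 had 2.57 against 9.46 FPKM (-1.88) and Slc44a3 had 6.35 against 18.6 FPKM (-1.55), in suspended JNK-deficient against suspended control cells. Slc16a5, of the carboxylate family, had 2.39 against 4.94 FPKM (-1.04), Slc37a1 7.34 against 14.8 FPKM (-1.01), the creatine carrier Slc6a8 38.9 against 64.1 FPKM (-0.72) and Slc31a2 9.96 against 15.6 FPKM (-0.65). Slc20a1, the largest rise with suspension, was also lower, at 109 FPKM in suspended JNK-deficient against 140.1 FPKM in suspended control cells (-0.36, q = 0.0327 per the authors' deposited table).

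**Figure D5:**
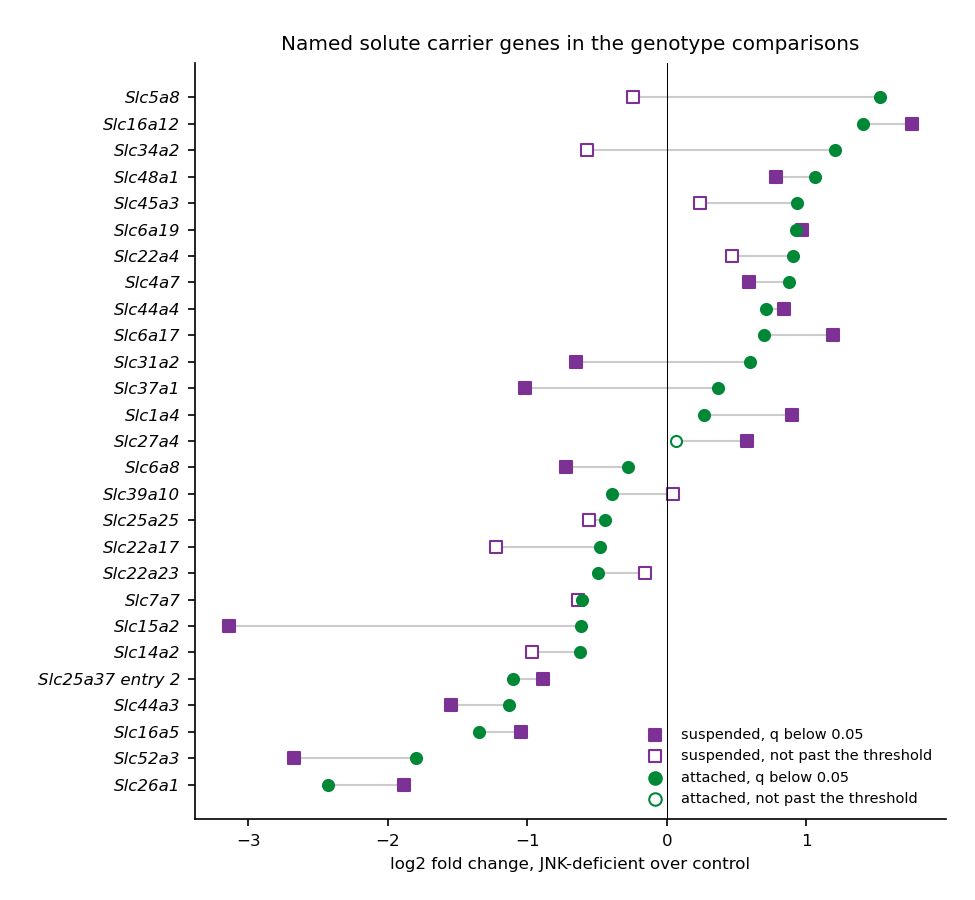
Log2 fold change, JNK-deficient over control, of the members named in the genotype comparisons, in suspended cells (purple squares) and attached cells (green circles); filled marks passed a q-value of 0.05. Slc16a12, Slc48a1 and Slc6a19 lie to the right in both states, Slc26a1, Slc52a3 and Slc44a3 to the left in both, and Slc31a2 and Slc37a1 change sides.

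Both genotype comparisons tested 165 members. Of these, 10 were higher in JNK-deficient cells in both states (Slc16a12, Slc48a1, Slc6a19, Slc6a17, Slc1a4, Slc4a7, Slc4a8, Slc33a1, Slc23a2 and Slc44a4), and 9 entries were lower in both (Slc26a1, Slc52a3, Slc44a3, Slc15a2, Slc16a5, Slc6a8, Slc38a6, Slc20a1 and the second entry of Slc25a37). Slc31a2 and Slc37a1 were higher in attached and lower in suspended JNK-deficient cells, no member showed the reverse, and 95 passed in neither state. The members called alike were 6.06% higher in both and 5.45% lower in both, beside 4.12% and 4.55% of the 12251 entries tested in both. These shares were not tested against each other. Slc15a2 and Slc52a3 are members by their control levels alone, so the share lower in both is not independent of the choice of members. In the other lists, 6 of 16 carriers with other names were higher and none was lower in attached JNK-deficient cells, among them the uncoupling protein Ucp2 and the prostaglandin carrier Slco2a1. Of 20 carrier partners 7 were higher, among them Fxyd2 and Atp1b1, the sodium pump subunit, and 1 was lower. Over all entries tested in attached cells, 14.7% were higher and 14.1% lower. Both lists were chosen with earlier results of these data known, and their counts were not tested against that background.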

How the data were processed

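RNA of 12 samples in 4 groups was measured; groups follow the genotype and culture in the labels. Per the labels' protocols, messenger RNA was made into Illumina libraries and run on a HiSeq. Per the submitters' processing notes, TopHat, Bowtie, Cufflinks 1.0.3, Cuffdiff and build mm10 were used; of the other versions, the annotation and strand handling, nothing is given in the sources used here. The authors deposited 4 tables of 31026 entries, 1 per pairwise comparison, with 1 FPKM value per group, a p-value and a q-value. The deposited p-values come in steps of 5e-05, so the smallest q-values are bounds.

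Log2 fold changes were computed from the deposited FPKM values (Python 3.11.15, numpy 2.4.6, pandas 2.3.3, scipy 1.17.1). The deposited log2 ratio column was not used, since part of its cells are not numbers. Values of the same group differed by up to 0.0895 on the log2 scale between tables, so levels are compared within a table. The difference of the suspension effects was a two-sided z-test. Standard errors were had by dividing each change by the normal score that its p-value implies (p up to 0.95). An estimate was made through the suspension tables and another through the genotype tables. Their mean was taken where neither used a p-value at the lowest step. Where a single estimate did, the other was taken, and where both did, the smaller was taken. Benjamini-Hochberg adjustment ran over 12867 entries, and the procedure was tested on simulated data. GC content and length came from GENCODE M21 transcripts, and a cubic trend over all genes was removed as an alternative. The members, classes and lists were chosen with earlier results of these data known. Genes were named by rule: the highest level and up to 3 rises and 3 falls per class in suspended JNK-deficient cells, 8 rises and 8 falls per genotype comparison and 6 differences per direction, at 3 FPKM or more, with close relatives beside them; Slc36a1, Slc38a7, Slc38a9 and others under 3 FPKM were added after their values were seen. Alternatives were a stricter q-value, a minimum fold, a higher level, an added FPKM, centring, the other standard errors and leaving out joined or overlapping entries; the last was chosen after seeing the data. No test per sample was possible. In addition, 1 result that concerns a single member is not reported here.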

Additional observations from a re-analysis of the deposited data

Results flagged for a closer look

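The change with suspension differed between the genotypes for 6 solute carriers, by the test of the difference itself (JNK-deficient minus control, log2 scale). The differences were -2.49 for Slc15a2, -1.75 for Slc5a8, -1.74 for Slc34a2, -1.34 for Slc37a1, -1.22 for Slc31a2 and -1.02 for Slc6a12. All are negative, while 160 of 12867 entries were called negative and 70 positive over the whole table. Slc5a8, Slc34a2, Slc31a2, Slc37a1 and Slc6a12 were also higher in attached JNK-deficient than in attached control cells, and Slc15a2 was lower. For the 5 that were higher, the difference rests at least in part on the attached values, while for Slc15a2 the attached values made it smaller. Between suspended cells of the genotypes, Slc5a8, Slc34a2 and Slc6a12 did not pass (q = 0.597, 0.168 and 0.241 per the authors' deposited table). The log2 fold changes of Slc5a8 and Slc34a2 between genotypes were -0.24 and -0.57 in suspended cells, against 1.53 and 1.20 in attached cells. The change in control cells that each difference subtracts comes from the values that chose the members, and Slc15a2 was below 1 FPKM in both JNK-deficient groups.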

How the results depend on the processing

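No paired analysis was possible because the tables hold 1 value per group, and for the same reason leaving out each sample was not run. In suspended JNK-deficient cells the count of members that fell went to 35 with the GC and length correction, from 56. In that correction the changes of Slc16a13, Slc39a11, Slc39a7 and Slc6a6 turned to 0.0558, 0.45, 0.95 and 0.18. In suspended control cells the count of members called higher was 45 at 5 FPKM or more, against 68. In attached cells 17 members were higher and 9 lower in JNK-deficient cells at a fold of 1.5 or more, against 38 and 26, and 16 were lower at 5 FPKM or more. In suspended cells 9 were higher and 9 lower at a q-value below 0.01, and 7 were higher at a fold of 1.5 or more, against 14 and 16. For the difference of the suspension effects, 3 members passed with the larger standard error, against 6. The 5 FPKM level left 127 members, which lowers counts by its own construction; for the other settings the cause was not tested. Leaving out joined entries (170 members kept) or entries sharing over 10% of their exon bases (162 kept) moved no count by 1.5 times. Across all settings the median over the members lay between -0.04 and 0.14 in suspended JNK-deficient cells and between -0.01 and 0.19 in suspended control cells. Depth is unknown, so what it limits cannot be given.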
